A study of Mus musculus with 6 samples.

Results

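Heat shock proteins and related molecular chaperones were examined in Treg (regulatory T cells), a CD4 lineage that holds immune responses in check. The members were all entries of the deposited count files whose symbol starts with Hsp followed by a, b, d, e, h or 90, or with Dnaja, Dnajb or Dnajc, together with the genes of the chaperonin TRiC (Tcp1 and the Cct genes). This gave 82 of the 23282 entries. Membership followed from the symbol, but the rule was set with earlier results of these data known. Treg had been sorted by flow cytometry from spleens of C57BL/6 mice and were not stimulated. A group of 3 wild type libraries was compared with 3 libraries labelled IPMK cKO, a conditional knockout of inositol polyphosphate multikinase (IPMK), a kinase of inositol phosphates and phosphoinositides. The comparison asked how loss of IPMK alters the Treg transcriptome. The sources used here do not give the promoter that drives the recombinase, the deleted part of Ipmk, the age of the mice or the sorting markers. The labels call the replicates biological but do not say whether each stands for its own animal, and p-values therefore describe the spread of these samples alone. Libraries are called WT 1 to 3 and cKO 1 to 3 after their replicate numbers. The knockout was compared with wild type mice, and the labels name no group that carries a recombinase alone.

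Molecular chaperones bind proteins that are not folded and help them fold, assemble or reach the right compartment. HSP70 proteins hold short exposed stretches of a client and release them in a cycle driven by ATP, J-domain proteins (the DNAJ families) bring clients and start that cycle, and HSP110 proteins reset it by exchanging nucleotide. HSP90 takes over partly folded kinases and receptors, small heat shock proteins hold unfolded clients without ATP, and TRiC encloses actin, tubulin and other proteins in a closed chamber. Heat shock factor 1 (HSF1) raises a subset of these genes within minutes of heat, oxidation or other protein damage. Dissociation and sorting of cells can raise the same subset.

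The library kit primes at poly(A) tails and reads the transcript's 3′ end, so a count does not scale with transcript length and levels of different genes are compared here as CPM, the count scaled to a common library size. The libraries held 7464546 to 8980395 counts, of which 5287300 to 7130660 lay outside the ribosomal RNA precursor Rn45s. Ipmk had 15.5, 10.5 and 10.3 CPM across the WT libraries and 0.422, 2.74 and 0 CPM across the cKO libraries, and whether its tags lie in the deleted part is not known. cKO 1 stood apart from the other 5 libraries: 38.0% of all genes tested lay more than 2-fold from the 6-library median there, against 6.42% to 19.2% elsewhere. All 7 Treg and T cell marker genes present in the files were detected in every library, with Foxp3 at 10.3, 80.6 and 29.0 CPM in WT 1 to 3 and 85.1, 72.0 and 82.3 CPM in cKO 1 to 3. Markers of other blood cell types were lower in sum than most of these single genes. In WT 1, however, Foxp3 lay below the B cell sum (19.7 CPM) and the CD8 T and NK cell sum (31.8 CPM). The other Treg and T cell markers had 94.3 CPM (Ctla4) to 843 CPM (Ikzf2) in that library. Of the 7 marker log2 fold changes of IPMK cKO over wild type, 2 lay above 0 and 5 below (median −0.18). The B cell genes (6 of 8 listed, without Ighm and Ighd) summed to 19.7 to 66.7 CPM, mainly Cd74 and Cd79b, with Pax5 at 0 in all libraries. The CD8 T and NK cell genes summed to 21.0 to 53.9 CPM, mainly Nkg7 and Cd8b1. The erythroid genes, mainly Hba-a1 and Alas2, reached 56.3 CPM in WT 2. The myeloid genes (mainly Tyrobp and Itgam) reached 18.5 CPM, the platelet genes 6.49 CPM (Itga2b alone) and the neutrophil genes (mainly Camp and S100a9) 2.73 CPM. In bulk RNA, fewer cells of a type and less RNA per cell cannot be told apart.

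No chaperone gene passed the test between IPMK cKO and wild type. Of the 82 members, 64 were tested, 12 had counts but not enough of them in 3 libraries and 6 had none. Among the 64, 0 passed edgeR's quasi-likelihood test (adjusted p threshold 0.05 over all 10475 genes tested, smallest adjusted p of a member 0.9999), and the background share of called genes was also 0%. At an unadjusted edgeR p under 0.05 there was 1 higher member of the 64, Hspb6, and 0 lower. Over all 10475 genes tested, 143 were higher and 125 lower at that p. DESeq2 also called 0 members. Of the estimates, 33 lay above 0 and 31 below, with a median log2 fold change of +0.03. Over all genes tested 5427 lay above and 5048 below, with the same rounded median of +0.03. In 62 of the 64 the estimate lay within 2 SE of 0, the exceptions being Hspb6 and Hspb1. Over all genes tested this held for 10045 of 10475, a similar share. Estimates given with an SE from here on are edgeR log2 fold changes of IPMK cKO over wild type. The median SE of the members was 0.56, so differences of 2-fold in a single member were mostly within the error of these libraries.

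Counting only whether the groups overlapped, 4 tested members had all 3 cKO libraries above the highest WT library, namely Hspb1, Hspb6, Dnajc21 and Dnajb6. That is 6.25% of the members, where the background over all genes was 4.74%. Another 3 were lower in every IPMK cKO library, namely Dnajb1, Dnajc10 and Hspbap1, which is 4.69% of the members against a background of 5.66%. Both shares were near the background. With 1 library left out, groups overlap less often by construction, and the counts and the background both grew. The higher count was 7 (background 7%), 5 (9.39%) and 6 (7.53%) without WT 1, 2 and 3 in turn, and 7 (9.45%), 5 (10.5%) and 12 (10.9%) without cKO 1, 2 and 3. The lower count was 8 (10.6%), 7 (10.6%) and 5 (8.90%) without WT 1, 2 and 3 in turn, and 6 (10%), 8 (13.9%) and 5 (11.8%) without cKO 1, 2 and 3.

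**Figure D1:**
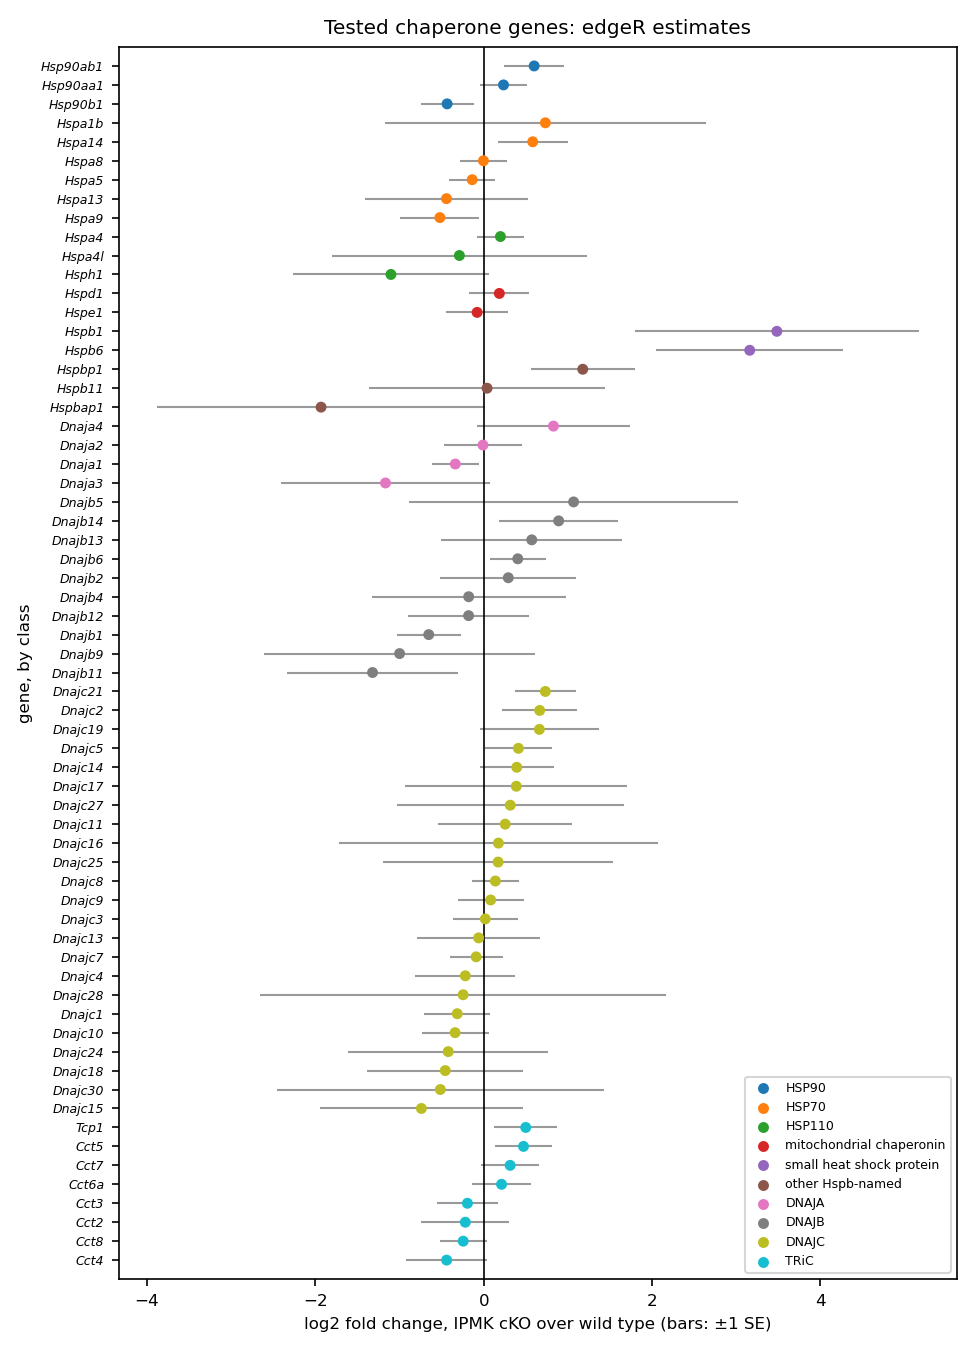
edgeR log2 fold changes of IPMK cKO over wild type (x axis) for the 64 tested chaperone genes grouped by class (y axis); points are estimates and bars are 1 SE to each side. The estimates spread evenly around 0, with a median of +0.03, and only Hspb1 and Hspb6 lie more than 2 SE from 0.

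Promoter sequences of some heat-inducible members and of those members with non-overlapping groups that hold the motif are shown first, because HSF1 acts through a short repeated motif in such promoters, the heat shock element. The motif was searched in RefSeq promoter sequences (GRCm38.p6, 250 bases before to 50 after the transcript start), which were matched for 67 of the 82 members. A 2-unit element was written as GAANNTTC or TTCNNGAA and a 3-unit element as GAANNTTCNNGAA or TTCNNGAANNTTC. Each 2-unit motif is its own reverse complement and the 3-unit motifs are each other's, so both strands were covered, and every 3-unit element also holds 2-unit ones. The 3-unit element stood in 4 of the 67 members (5.97%: Dnajb6, Hsph1, Hspe1 and Hspd1) and in 0.662% of all 27025 genes with a sequence. The 2-unit element stood in 19 members (28.4%) and in 17.0% of all genes. Capitals mark the elements, and a match describes letters only, not binding.
Hspa1a, chr17:34972203-34972290, minus strand: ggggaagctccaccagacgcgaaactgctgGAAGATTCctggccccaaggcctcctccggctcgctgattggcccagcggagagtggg
Hspa1b, chr17:34959285-34959372, minus strand: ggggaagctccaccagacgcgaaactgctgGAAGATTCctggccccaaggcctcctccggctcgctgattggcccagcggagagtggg
Hspb1, chr5:135887772-135887879, plus strand: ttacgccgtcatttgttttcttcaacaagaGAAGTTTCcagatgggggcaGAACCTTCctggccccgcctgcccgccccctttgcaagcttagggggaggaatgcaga
Hspb6, chr7:30553151-30553238, plus strand, before its second listed start: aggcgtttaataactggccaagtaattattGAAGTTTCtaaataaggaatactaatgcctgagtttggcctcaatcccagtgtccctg
Hspe1, chr1:55088053-55088082, plus strand: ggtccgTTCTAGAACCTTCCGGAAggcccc
Dnajb6, chr5:29735844-29735873, plus strand: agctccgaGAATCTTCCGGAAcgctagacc
Dnajc10, chr2:80315254-80315341, plus strand: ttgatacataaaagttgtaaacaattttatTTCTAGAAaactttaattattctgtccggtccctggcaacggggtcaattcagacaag

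The Hspa1a and Hspa1b stretches are letter for letter the same, and their 250 upstream bases differ at 3 positions. The Dnajb6 and Hspb6 stretches lie inside the annotated bounds of their own genes, which begin at 29735688 and 30552178 on the plus strand. The Hspe1 stretch lies before the start of Hspe1 and inside the bounds of its neighbour Hspd1, which is read in the opposite direction, and a RefSeq promoter window of Hspd1 holds the same stretch on the other strand. Of the 7 members whose groups did not overlap, Hspb1, Hspb6, Dnajb6 and Dnajc10 hold a 2-unit element in the window, and Dnajb1, Dnajc21 and Hspbap1 hold none. The 15 tested members with an element had 9 estimates above 0 and 6 below (median +0.21). The 38 without one had a median of 0.005, with 19 on either side. The 11 for which no promoter sequence was used had a median of −0.004, with 5 above 0 and 6 below. In cKO 1 alone, the median deviation from the 6-library median was +0.52 log2 units for the members with an element and −0.16 for those without. It was +0.265 for the 11 with no sequence used. In the other 5 libraries these medians ran from −0.16 to +0.11 with an element, from −0.08 to +0.03 without and from −0.255 to +0.183 with no sequence used. The difference between members with and without an element was largest in the library that stood apart for all genes. The same comparison was not made over all genes, and the part of the element was not tested.

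Chaperone transcripts made up about 1% of the counts outside Rn45s in each library. Of all counts they held 0.651% to 0.841% per library, with means of 0.760% over WT libraries and 0.753% over cKO libraries. Of the counts outside Rn45s, all members together held 1.05%, 0.954% and 0.961% in WT 1 to 3 and 1.22%, 1.03% and 0.896% in cKO 1 to 3 (0.988% ± 0.0527 against 1.05% ± 0.165, SD, n = 3 each). The groups overlapped, with cKO 1 the highest and cKO 3 the lowest of all 6. The order of the classes was led by HSP90 in every library, followed by DNAJC, HSP70 and TRiC in differing order, and small heat shock proteins came last. Without Hsp90ab1 the members' shares were 0.751%, 0.665% and 0.700% in WT 1 to 3 and 0.652%, 0.709% and 0.644% in cKO 1 to 3. The small heat shock proteins were the only class in which every IPMK cKO library exceeded every wild type library.

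**Figure D2:**
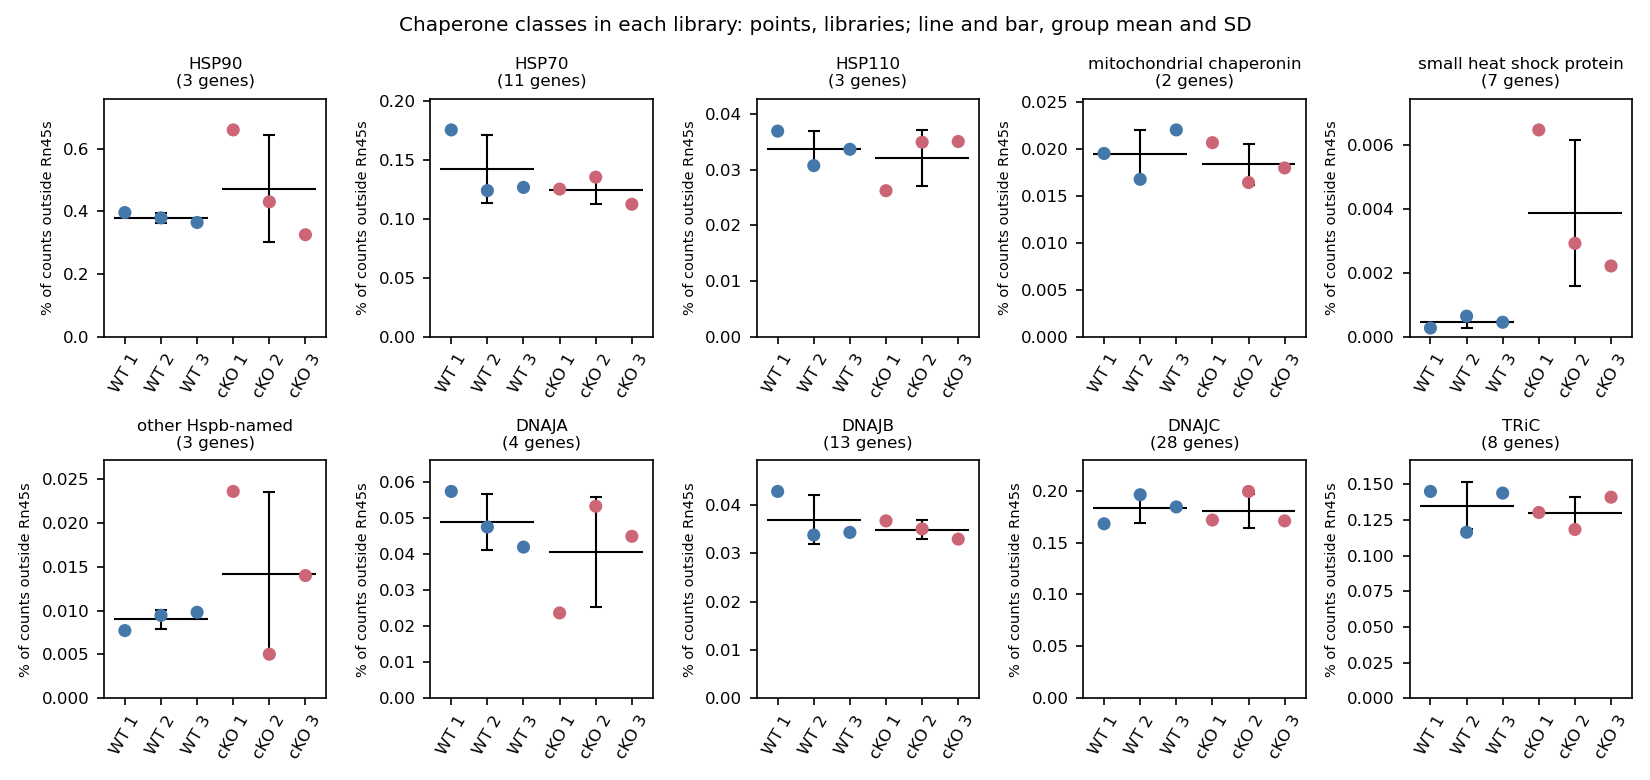
Share of the counts outside Rn45s (y axis, %) taken by each of the 10 chaperone classes in each library (x axis); points are libraries, the line is the group mean and the bar 1 SD (n = 3 per group). HSP90 shows the single high point of cKO 1 (0.660%), and the groups are apart only in the small heat shock proteins.

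The HSP90 family was dominated by the constitutive cytosolic Hsp90ab1 (ENSMUSG00000023944, chromosome 17, 45567775 to 45573271, minus strand of mm10). Hsp90ab1 had 2108, 2088 and 1862 CPM in WT 1 to 3 against 4967, 2381 and 1824 CPM in cKO 1 to 3. cKO 1 was more than 2-fold above all other libraries, and the remaining IPMK cKO libraries lay just above and just below the wild type range. Its group means were 2019 ± 137 CPM over WT libraries and 3057 ± 1677 CPM over cKO libraries (SD, n = 3 each), an estimate of +0.60 (SE 0.36). Without cKO 1 the estimate was +0.05. This single gene held 28.3%, 30.3% and 27.1% of all member counts in WT 1 to 3. In cKO 1 to 3 it held 46.7%, 31.2% and 28.1%.

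Hsp90aa1, the stress-inducible cytosolic HSP90, had 395, 399.9 and 472 CPM across the WT libraries and 609, 518 and 364 CPM across the cKO libraries. The groups overlapped, and the estimate was +0.23 (SE 0.28). The ratio of Hsp90ab1 to Hsp90aa1 counts was 5.34, 5.22 and 3.94 in WT 1 to 3 and 8.16, 4.60 and 5.01 in cKO 1 to 3, so the constitutive form exceeded the inducible one in every library. Hsp90b1, the HSP90 of the endoplasmic reticulum (ER), had 306, 251 and 268 CPM in WT 1 to 3 against 153, 292 and 165 CPM in cKO 1 to 3. cKO 1 and 3 lay below all wild type libraries and cKO 2 lay within their range (−0.44, SE 0.32). The HSP90 class as a whole took 0.380% ± 0.0158 of the counts outside Rn45s over WT libraries and 0.472% ± 0.171 over cKO libraries (SD, n = 3 each). Without cKO 1 the difference between these means went from +0.0920 to −0.00198 percentage points.

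Among the HSP70 genes, the ER chaperone Hspa5 (BiP), which also holds the sensors of the unfolded protein response inactive, was the most abundant. Hspa5 had 709, 547 and 511 CPM across the WT libraries and 612, 581 and 414 CPM across the cKO libraries. Only cKO 3 lay outside the wild type range (−0.14, SE 0.27). The constitutive cytosolic Hspa8 (HSC70) had 315, 223 and 239 CPM in WT 1 to 3 against 299, 259 and 216 CPM in cKO 1 to 3, and the estimate was 0.00 (SE 0.28). Hspa5 exceeded Hspa8 by 1.92 to 2.46 times in every library, counted as tags. The estimates of both genes were smaller than 1 SE.

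Hspa9, the mitochondrial HSP70 that pulls proteins across the inner membrane, had 166, 66.7 and 79.8 CPM across the WT libraries and 35.3, 85.97 and 96.3 CPM across the cKO libraries. WT 1 was the highest and cKO 1 the lowest, and the other 4 libraries were close together. Its estimate of −0.52 (SE 0.47) became +0.32 when both libraries numbered 1 were left out. Hspa14, an HSP70 found on ribosomes, had 27.2, 39.1 and 57.1 CPM in WT 1 to 3 against 49.4, 61.9 and 73.4 CPM in cKO 1 to 3, with overlapping groups (+0.58, SE 0.42). Hspa13, an HSP70 of microsomes, had 9.99, 15.7 and 11.03 CPM across the WT libraries and 16.2, 6.79 and 4.06 CPM across the cKO libraries (−0.44, SE 0.97).

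The heat-inducible cytosolic HSP70 genes Hspa1a and Hspa1b are known to be near silent in unstressed cells, and they were low in all libraries. Both are single-exon neighbours on chromosome 17 (34969190 to 34972156 and 34956436 to 34959238, minus strand of mm10) with near-identical sequence, so reads may be split between them and their sum was used. Hspa1a had 50, 0 and 27 counts in WT 1 to 3 against 4, 7 and 0 counts in cKO 1 to 3 and was not tested. Hspa1b had 73, 0 and 21 counts across the WT libraries and 81, 9 and 56 counts across the cKO libraries. As a share of all counts of Hspa1a, Hspa1b and Hspa8, the pair made up 4.49% (95% exact binomial interval 3.74% to 5.33%) in WT 1. No count was found in WT 2, where the exact interval reaches 0.226% (0.184% by the limit of 3 counts used for other counts of 0). The share was 2.05% (1.51% to 2.71%) in WT 3. In cKO 1 to 3 it was 3.84% (3.08% to 4.73%), 0.800% (0.458% to 1.30%) and 2.57% (1.94% to 3.32%). The kit's reads carry no molecular identifiers as far as the labels say, so the intervals hold for counting error and for nothing else. The inducible share was therefore high in both libraries numbered 1, low in both numbered 2 and between these in both numbered 3 in each group. In the fit Hspa1b had +0.73 (SE 1.91).

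**Figure D3:**
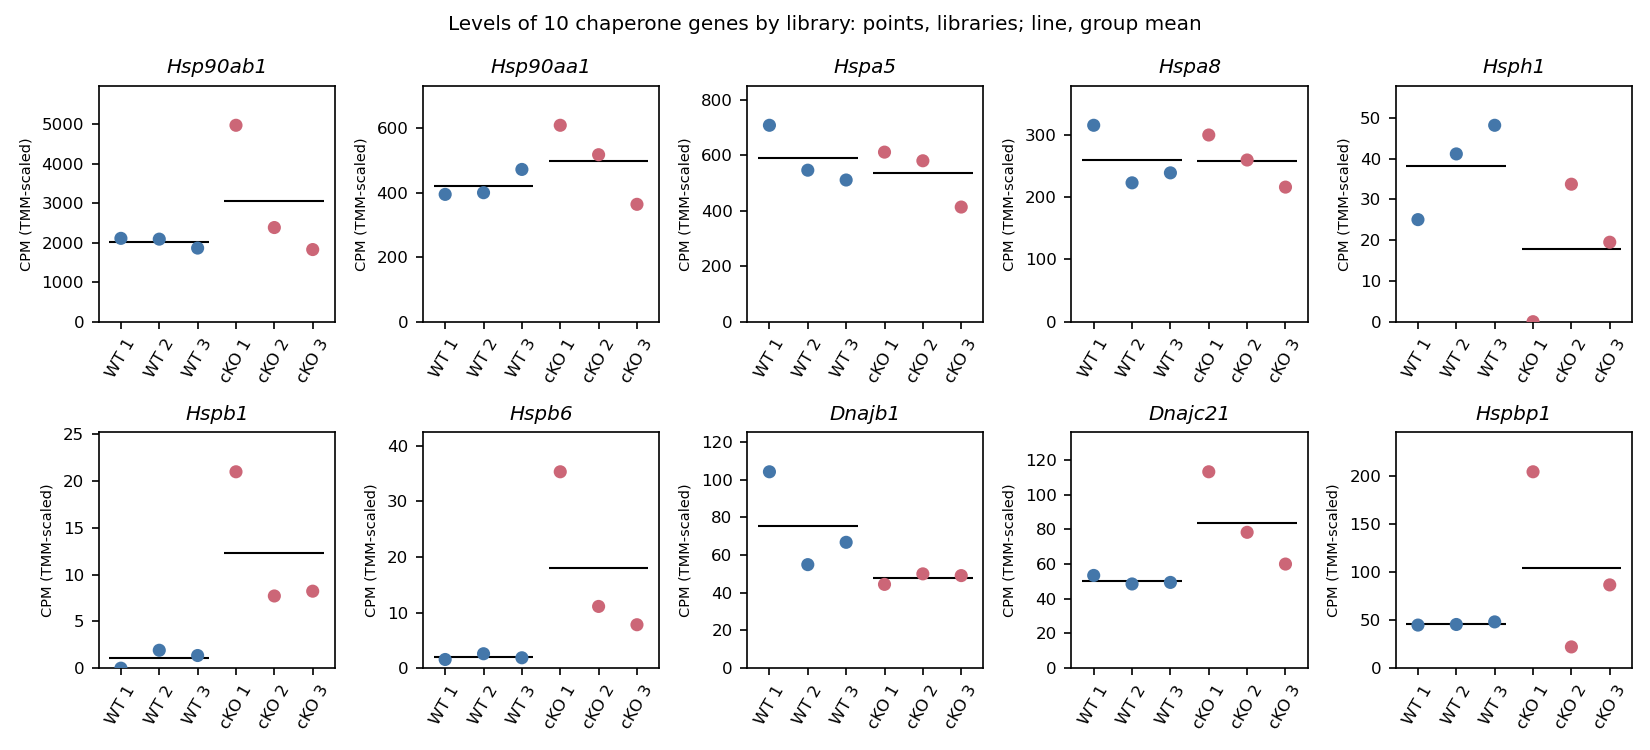
CPM on TMM-scaled library sizes (y axis) of 10 chaperone genes in each library (x axis); points are libraries and lines are group means (n = 3 per group). Hsp90ab1, Hspb1, Hspb6, Dnajc21 and Hspbp1 have their highest point in cKO 1, where Hsph1 is at 0.

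The HSF1-induced members as a list of 12 (Hspa1a, Hspa1b, Hspa8, Hsph1, Hspa4l, Hsp90aa1, Hspb1, Hspd1, Hspe1, Dnaja1, Dnajb1 and Dnajb4) varied less between libraries than the inducible pair. Their summed level was 1204, 1045 and 1158 CPM in WT 1 to 3 and 1296, 1197 and 923 CPM in cKO 1 to 3, a ratio of 1.40 between the highest and the lowest library. Of the 11 tested, 0 passed the test, 4 estimates lay above 0 and 7 below (median −0.08). Hsp90aa1 and Hspa8 carry most of this sum, so it says little about the genes that are near 0 without stress. Early response genes, which rise within minutes of handling or stimulation, were lower in sum in every IPMK cKO library (3085, 2959 and 3097 CPM in WT 1 to 3, against 2697, 2764 and 2884 CPM). Nfkbia alone held a large part of each sum (1386, 1325 and 1580 CPM against 883, 1253 and 1423 CPM), and its groups overlapped. Jund went the other way in cKO 1, at 930 CPM against 254 to 357 CPM in wild type. The sum therefore says little about the other genes of this list. Of the 14 tested 0 passed, with 6 above 0 and 8 below (median −0.18). The transcription factor genes with the smallest p in the list were Junb (309.8, 222 and 197 CPM against 85.6, 190.4 and 107 CPM; −0.93, SE 0.36) and Jund (+0.70, SE 0.45). The genes of the heat shock factors and their binding protein had 0 of 3 passing and all 3 estimates below 0 (median −0.41). They were Hsf1 (−0.41, SE 0.64), Hsf2 (−1.17, SE 1.34) and the binding protein gene Hsbp1, which was near 0 (−0.01, SE 0.35). Hsf1 itself had 24.3, 27.5 and 23.1 CPM in WT 1 to 3 and 8.02, 26.8 and 21.3 CPM in cKO 1 to 3, so the low value was that of cKO 1.

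HSP110 proteins are the nucleotide exchange partners of cytosolic HSP70. Hspa4 had 227, 161 and 184 CPM in WT 1 to 3 against 225, 197 and 234 CPM in cKO 1 to 3, all within a narrow range (+0.20, SE 0.27). The heat-inducible Hsph1 had 25.03, 41.1 and 48.2 CPM across the WT libraries and 0, 33.7 and 19.5 CPM across the cKO libraries. Its groups overlapped, since 33.7 CPM in cKO 2 lay above WT 1, and the estimate was −1.10 (SE 1.17). With 3 counts as the limit for a count of 0, Hsph1 could have reached 0.422 CPM in cKO 1, from counting error alone. Hspa4l had 10.2, 19.5 and 8.11 CPM in WT 1 to 3 against 2.39, 28.6 and 0 CPM in cKO 1 to 3, with the highest and the lowest library both in IPMK cKO (−0.29, SE 1.52).

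Hspd1 (HSP60) and its lid Hspe1 (HSP10) form the folding chamber of the mitochondrial matrix. Hspd1 had 66.2, 68.6 and 57.4 CPM across the WT libraries and 96.2, 67.02 and 55.3 CPM across the cKO libraries (+0.19, SE 0.36). Hspe1 had 72.6, 52.7 and 100.2 CPM in WT 1 to 3 against 83.6, 55 and 75 CPM in cKO 1 to 3 (−0.08, SE 0.37). The groups overlapped for both. Both genes have the stretch printed above in a promoter window, and Hspd1 was highest in cKO 1 and Hspe1 in WT 3. The mitochondrial members as a list of 10 (Hspa9, Hspd1, Hspe1, Dnaja3, Dnajc4, Dnajc11, Dnajc15, Dnajc19, Dnajc28 and Dnajc30) summed to 277 to 412 CPM in wild type and 293 to 348 CPM in IPMK cKO. None of the 10 passed the test, with 3 estimates above 0 and 7 below (median −0.23).

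The small heat shock proteins Hspb1 (HSP27) and Hspb6 (HSP20), best known from muscle and stressed cells, had the estimates farthest from 0 among the 64 tested members, at very low levels. Hspb6 (ENSMUSG00000036854, chromosome 7, 30552178 to 30555443, plus strand of mm10) had 13, 19 and 18 counts across the WT libraries and 251, 85 and 77 counts across the cKO libraries, which is 1.56, 2.60 and 1.87 CPM in WT 1 to 3 against 35.3, 11.1 and 7.81 CPM in cKO 1 to 3. Every IPMK cKO library lay above every wild type library, cKO 1 by the widest margin. The group means were 2.01 ± 0.530 CPM over WT libraries and 18.1 ± 15.02 CPM over cKO libraries (SD, n = 3 each), an 8.99-fold ratio, and the estimate was +3.16 (SE 1.11) (edgeR unadjusted p = 0.0163, adjusted p = 0.9999). Leaving out any 1 library kept the estimate between +2.22 and +3.52. DESeq2 gave an adjusted p of 0.396.

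Hspb1 (ENSMUSG00000004951, chromosome 5, 135887919 to 135889563, plus strand of mm10) had 0, 14 and 13 counts across the WT libraries and 149, 59 and 81 counts across the cKO libraries, which is 0, 1.91 and 1.35 CPM in WT 1 to 3 against 20.97, 7.71 and 8.22 CPM in cKO 1 to 3. Again all IPMK cKO libraries were above all wild type libraries, cKO 2 and 3 at similar levels, and the count of 0 in WT 1 allows 0.361 CPM (3 counts). The group means were 1.09 ± 0.983 CPM over WT libraries and 12.3 ± 7.51 CPM over cKO libraries (SD, n = 3 each), an 11.3-fold ratio, with an estimate of +3.48 (SE 1.69) (edgeR adjusted p = 0.9999). Leaving out 1 library at a time gave +2.85 to +4.12. As a class the small heat shock proteins took only 0.000455% ± 0.000186 of the counts outside Rn45s over WT libraries and 0.00387% ± 0.00229 over cKO libraries (SD, n = 3 each).

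These genes are also expressed outside T cells, and a list of 12 stromal, muscle and endothelial genes, added after the values were seen, was read beside them. It summed to 59.6, 113 and 90.8 CPM in WT 1 to 3 and 46.6, 106 and 130.1 CPM in cKO 1 to 3. Pecam1 held most of this sum in every library (36.1, 66 and 70.1 CPM across the WT libraries and 45.7, 67.02 and 92.3 CPM across the cKO libraries). Col1a2 had 0, 3.01 and 0.624 CPM in WT 1 to 3 against 0, 8.88 and 9.84 CPM in cKO 1 to 3 (+2.36, SE 2.3). Of the 4 tested genes of the list, 2 estimates lay above 0 and 2 below. The lower ones were Acta2 (−0.41, SE 1.32) and Tagln (−0.53, SE 1.25). Acta2 had 0.141, 9.41 and 14.9 CPM in cKO 1 to 3, and Tagln had 0.704, 6.53 and 13.0 CPM. The part of stromal, muscle and endothelial cells in the Hspb1 and Hspb6 values was not tested. Pecam1 and Acta2 led the list, 9 of the 12 genes had a count, and Myl9, Cnn1 and Vwf were at 0 in all libraries. The end of Hspb6 overlaps an exon of Lin37 on the other strand, and the sources used here do not say whether counting used strand. Lin37 had 6.38, 6.97 and 6.45 CPM in WT 1 to 3 and 27.0, 5.23 and 1.93 CPM in cKO 1 to 3, so it was high with Hspb6 in cKO 1 and below the wild type range in cKO 2 and 3. The part of overlapping tags in the Hspb6 counts was not tested, and the same limit holds for the 9 other members whose last 500 bases overlap another gene's exon, among them Dnaja1 (Smu1), Dnaja4 (Wdr61), Dnajc14 (Ormdl2), Dnajc19 (Fxr1), Cct8 (Usp16) and Tcp1 (Acat3). No annotated gene overlaps Hspb1.

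Other genes that share the Hspb prefix are not small heat shock proteins. Hspbp1, a nucleotide exchange partner of HSP70, had 44.8, 45.4 and 48.1 CPM across the WT libraries and 204, 22.1 and 86.5 CPM across the cKO libraries. The wild type libraries were nearly equal, and IPMK cKO held both the highest and the lowest library, which differed 9.23-fold (+1.18, SE 0.62). Without cKO 1 the estimate was +0.23. Hspb11, a component of intraflagellar transport also known as Ift25, had 0.963, 10.1 and 10.8 CPM in WT 1 to 3 against 1.13, 6.53 and 14.8 CPM in cKO 1 to 3 (+0.04, SE 1.40). Hspbap1, which binds a small heat shock protein, had 9.02, 12.8 and 11.1 CPM across the WT libraries and 0, 8.62 and 0 CPM across the cKO libraries. It had no count in cKO 1 and 3, and all IPMK cKO values were below the lowest wild type value (−1.93, SE 1.95).

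**Figure D4:**
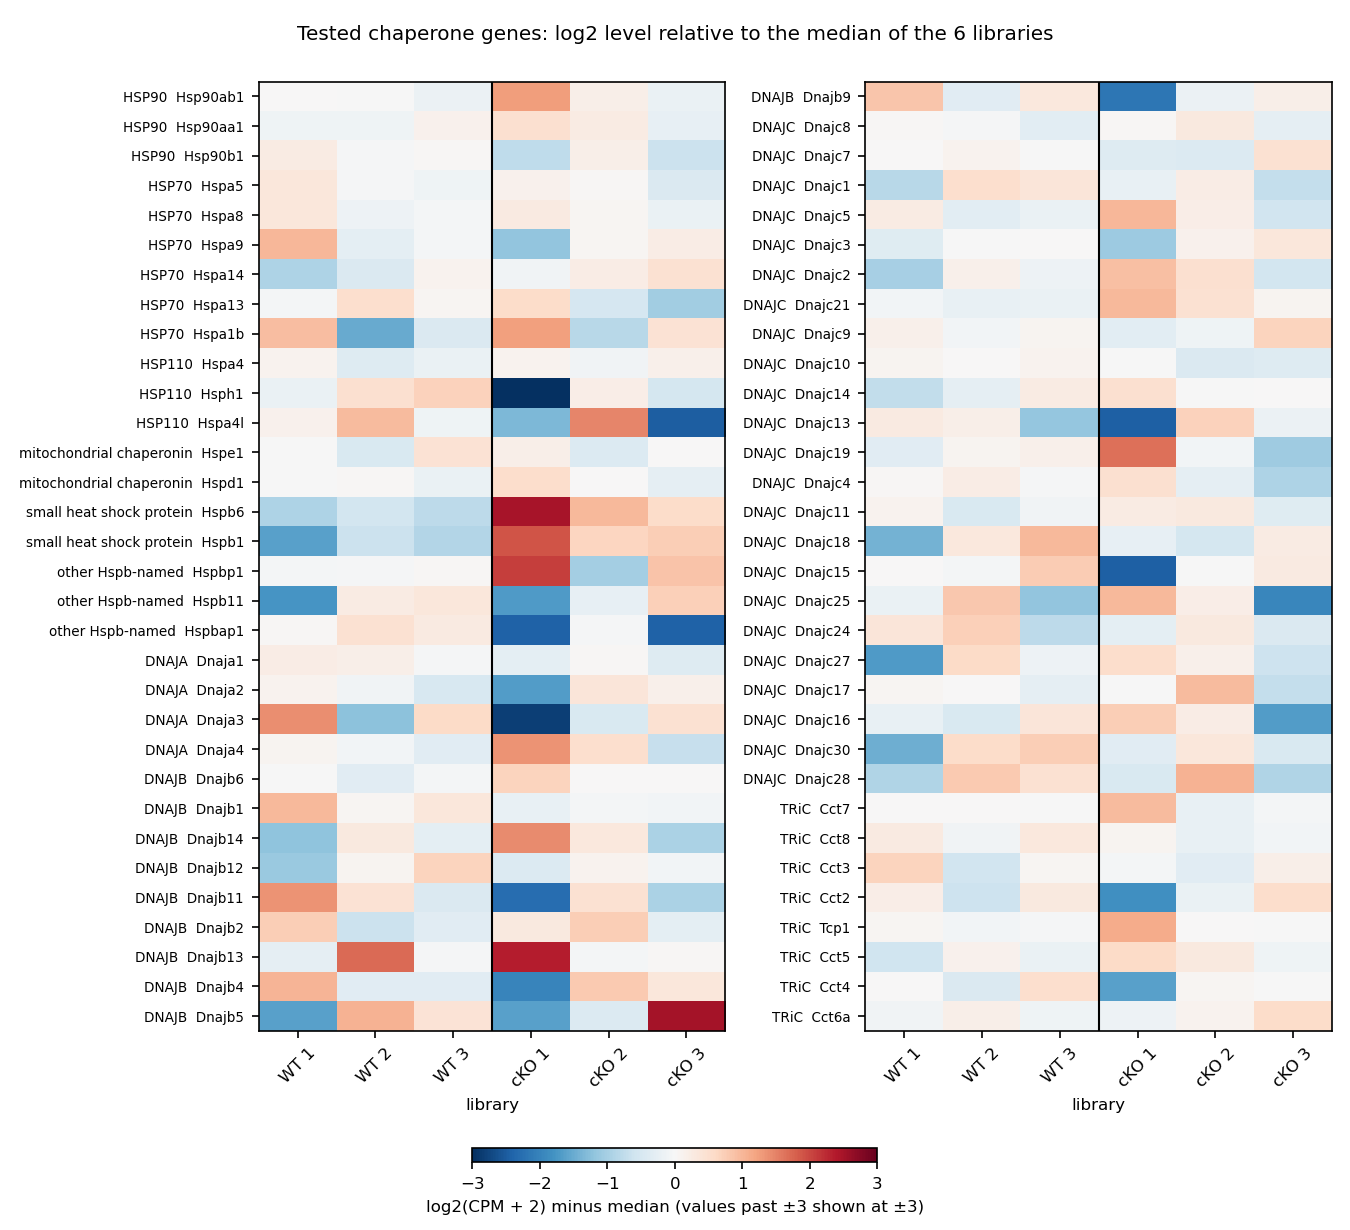
Log2(CPM + 2) of the 64 tested chaperone genes (rows, by class) in each library (columns), minus the gene's median over the 6 libraries; red is above and blue below the median. The column of cKO 1 holds the strongest colours, with 10 genes more than 2-fold above the median and 16 more than 2-fold below.

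DNAJA proteins are the general cytosolic and mitochondrial partners of HSP70. Dnaja1 had 181, 177 and 154 CPM in WT 1 to 3 against 127, 159 and 119 CPM in cKO 1 to 3. WT 3 and cKO 2 overlapped, and the other IPMK cKO libraries were lower (−0.34, SE 0.28). Dnaja2 had 177, 152 and 118 CPM across the WT libraries and 50.2, 212 and 182 CPM across the cKO libraries, with cKO 1 far below the rest (−0.01, SE 0.46). The mitochondrial Dnaja3 had 37.8, 4.37 and 20.3 CPM in WT 1 to 3 against 0.141, 9.01 and 18.6 CPM in cKO 1 to 3 (−1.17, SE 1.25). The wild type libraries alone spread widely for Dnaja3. Dnaja4 had 10.3, 9.02 and 7.28 CPM across the WT libraries and 27.6, 14.5 and 5.28 CPM across the cKO libraries (+0.83, SE 0.91).

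DNAJB proteins include stress-induced and client-holding J-domain proteins. Dnajb1 (HSP40), the heat-inducible partner of HSP70 in the cytosol (ENSMUSG00000005483, chromosome 8, 83608193 to 83612653, plus strand of mm10), had 104, 54.9 and 66.8 CPM in WT 1 to 3 against 44.5, 50.04 and 49.1 CPM in cKO 1 to 3. All IPMK cKO libraries lay below all wild type libraries, and WT 1 was far above the rest. The group means were 75.3 ± 25.7 CPM over WT libraries and 47.9 ± 2.99 CPM over cKO libraries (SD, n = 3 each) and the estimate was −0.65 (SE 0.38). Without WT 1 it was −0.35. Dnajb6, which suppresses aggregation, had 83.98, 66.7 and 81.1 CPM across the WT libraries and 136, 85.6 and 85.2 CPM across the cKO libraries. The nearest libraries of the groups were close, and the estimate was +0.40 (SE 0.33). With DESeq2 size factors the groups of Dnajb6 overlapped.

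Dnajb14 and Dnajb12 sit in the ER membrane and take part in the degradation of membrane proteins. Dnajb14 had 9.99, 31.7 and 20.4 CPM in WT 1 to 3 against 70.9, 32.01 and 12.2 CPM in cKO 1 to 3, a 7.10-fold range with WT 1 the lowest and cKO 1 the highest (+0.89, SE 0.71). When both libraries numbered 1 were left out, the estimate was −0.24. Dnajb12 had 7.58, 19.95 and 30.8 CPM across the WT libraries and 13.6, 20.4 and 17.5 CPM across the cKO libraries (−0.18, SE 0.72). The ER cochaperone Dnajb11, a partner of BiP, had 36.9, 18.7 and 9.26 CPM in WT 1 to 3 against 1.13, 18.9 and 5.89 CPM in cKO 1 to 3, with a wide spread in both groups (−1.32, SE 1.02). The other tested genes of this class (Dnajb2, Dnajb4, Dnajb5, Dnajb9 and Dnajb13) had means of 7.01 to 14.4 CPM over all libraries and overlapping groups. In the class of 13 DNAJB genes, 10 were tested, with 5 estimates above 0 and 5 below (median +0.06).

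DNAJC proteins carry the J domain in many different settings, and the class was the second most abundant in WT 2 and 3 and in all IPMK cKO libraries. Dnajc8, associated with splicing factors, had 263, 253 and 207 CPM across the WT libraries and 266, 316 and 213 CPM across the cKO libraries (+0.14, SE 0.28). Dnajc7, which binds both HSP70 and HSP90, had 198, 213 and 198 CPM in WT 1 to 3 against 149.7, 148 and 273 CPM in cKO 1 to 3 (−0.09, SE 0.32). Dnajc1, an ER membrane protein, had 92.9, 236 and 213 CPM across the WT libraries and 143, 193 and 100.4 CPM across the cKO libraries (−0.32, SE 0.39). All 3 overlapped between the groups. Dnajc5, the cysteine string protein of secretory vesicles, had 149, 101 and 109 CPM in WT 1 to 3 against 251, 144 and 82.8 CPM in cKO 1 to 3. Its estimate of +0.41 (SE 0.40) became −0.09 without cKO 1.

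The DNAJC gene with the smallest p was Dnajc21, a factor of ribosome assembly (ENSMUSG00000044224, chromosome 15, 10446756 to 10470516, minus strand of mm10). Dnajc21 had 53.4, 48.5 and 49.4 CPM across the WT libraries and 113, 78.3 and 59.98 CPM across the cKO libraries. The wild type libraries were nearly equal, and all IPMK cKO libraries were above them. The group means were 50.4 ± 2.61 CPM over WT libraries and 83.8 ± 27.01 CPM over cKO libraries (SD, n = 3 each) and the estimate was +0.73 (SE 0.37) (edgeR unadjusted p = 0.0713, adjusted p = 0.9999). Without cKO 1 it was +0.45. Dnajc10, an ER J-domain protein with disulfide reductase activity, had 49.9, 47.3 and 50.7 CPM in WT 1 to 3 against 47, 34.5 and 35.3 CPM in cKO 1 to 3. Its libraries were lower in IPMK cKO by a narrow margin (−0.34, SE 0.40), and the groups overlapped with DESeq2 size factors.

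Other DNAJC genes varied strongly among libraries without following the genotype. Dnajc13, an endosomal protein, had 56.7, 53.2 and 19.9 CPM across the WT libraries and 6.89, 76.7 and 40.7 CPM across the cKO libraries, an 11.1-fold range with the lowest value in cKO 1. Dnajc19, a subunit of the mitochondrial import motor, had 18.2, 25.01 and 26.5 CPM in WT 1 to 3 against 77.95, 22.2 and 10.1 CPM in cKO 1 to 3, a 7.68-fold range with the highest value in that library. Of 28 DNAJC genes, 23 were tested, with 13 estimates above 0 and 10 below (median +0.08).

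TRiC is built from 8 different subunits in equal number. This does not make the tag counts of its genes equal, so the range among these genes was compared between libraries. Their levels lay within 3.41- to 3.49-fold of each other in wild type and within 2.49- and 2.46-fold in cKO 2 and 3. In cKO 1 the range was 16.0-fold. Cct7, the most abundant subunit, had 209, 210.0 and 205 CPM across the WT libraries and 399.8, 176 and 199.6 CPM across the cKO libraries. Cct2 had 146, 81.2 and 155 CPM in WT 1 to 3 against 33.8, 110.0 and 185 CPM in cKO 1 to 3 and spanned a 5.48-fold range. Cct4 had 82.2, 60.1 and 117 CPM across the WT libraries and 25.05, 84.8 and 81.3 CPM across the cKO libraries. In cKO 1, Cct7 was thus above all other libraries, while Cct2 and Cct4 were below all of them.

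Tcp1 (the alpha subunit) had 89.5, 81.6 and 84.2 CPM in WT 1 to 3 against 188, 87.5 and 85.1 CPM in cKO 1 to 3, and it was more than 2-fold above all other libraries in cKO 1. Cct5 had 64.1, 106 and 85.1 CPM across the WT libraries and 145, 119.9 and 89.2 CPM across the cKO libraries. Cct8 had 193, 150.2 and 199 CPM in WT 1 to 3 against 169.7, 136 and 152 CPM in cKO 1 to 3. Cct5 was highest in cKO 1 as well, and Cct8 was not. Cct3 had 184, 77.2 and 120.4 CPM across the WT libraries and 111, 91.5 and 132 CPM across the cKO libraries. Cct6a had 60.3, 73.9 and 60.01 CPM in WT 1 to 3 against 58.1, 70.8 and 95.9 CPM in cKO 1 to 3. Of the 8 subunits 0 passed the test, 4 estimates lay above 0 and 4 below, with a median of +0.01. The estimates ran from −0.44 (SE 0.48) for Cct4 to +0.50 (SE 0.37) for Tcp1. Those of the others were +0.47 (SE 0.34) for Cct5, +0.31 (SE 0.34) for Cct7, +0.21 (SE 0.35) for Cct6a, −0.19 (SE 0.36) for Cct3, −0.22 (SE 0.52) for Cct2 and −0.24 (SE 0.28) for Cct8. All groups overlapped, and TRiC as a class held 0.135% ± 0.0162 of the counts outside Rn45s over WT libraries and 0.130% ± 0.0113 over cKO libraries (SD, n = 3 each).

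Members deviated in cKO 1 about as often as other genes. Of the 64 tested members, 40.6% lay more than 2-fold from their 6-library median in that library, against 38.0% of all genes tested. Among genes with a mean of at least 20 CPM these shares were 31.6% of 38 members and 31.2% of 5942 genes. In the remaining libraries 3.12% to 17.2% of the tested members lay that far. cKO 1 held the highest value for 23 members and the lowest for 18. Base composition and transcript length were read beside these deviations. Across the 63 tested members with a transcript in GENCODE M21, the rank correlation between the deviation in cKO 1 and the GC share of the last 500 transcript bases was 0.28, and across 9678 tested genes it was 0.22. In the other libraries the correlation with GC ran from −0.16 to 0.04 for the members and from −0.20 (cKO 2) to 0.03 for all genes. With transcript length it was −0.09 for the members in cKO 1 and ran from −0.32 (cKO 3) to 0.20 (WT 2) elsewhere. For all genes it was −0.05 in cKO 1 and ran from −0.115 (WT 3) to 0.21 (cKO 2) elsewhere. These are descriptions across genes of 1 library, which are not independent replicates. The third of the members with the lowest GC (28% to 40.2%) had a median deviation of −0.30 log2 units in cKO 1, and the third with the highest (46.6% to 58.2%) had +0.39. The part of base composition or transcript length in any single difference was not tested.

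**Figure D5:**
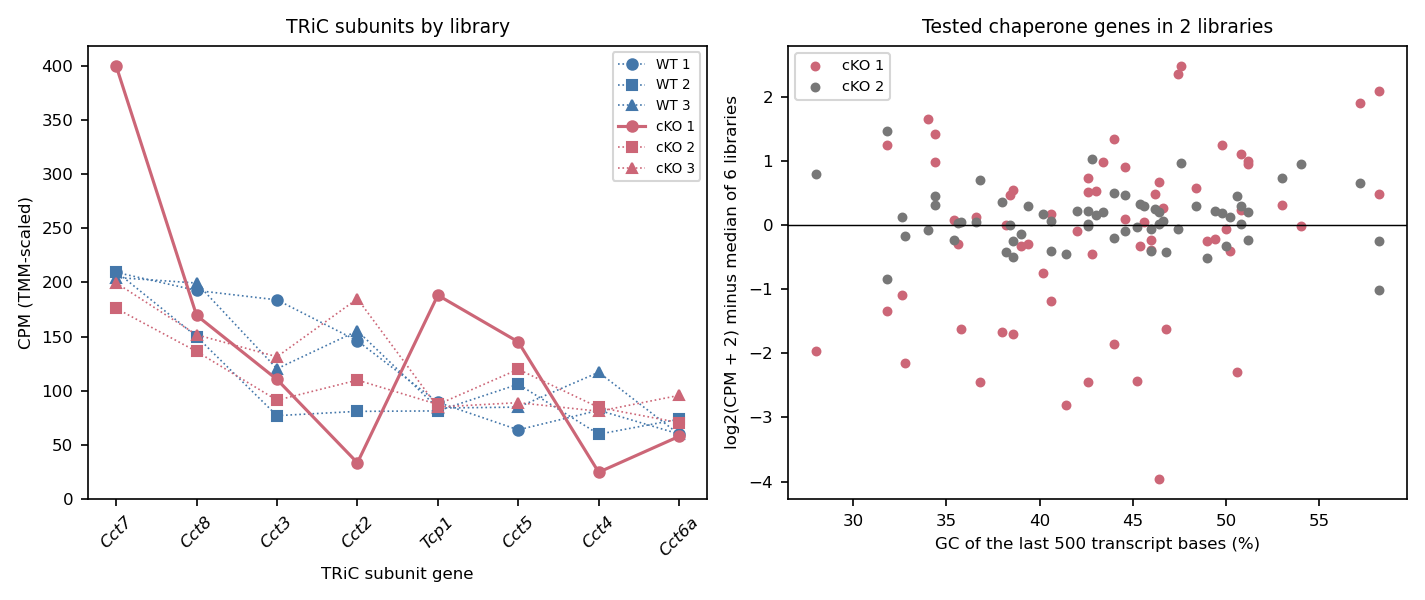
Left, CPM (y axis) of the 8 TRiC subunit genes (x axis) in each library, one line per library. Right, deviation of each tested chaperone gene from its 6-library median (y axis, log2) against the GC share of its last 500 transcript bases (x axis, %) in cKO 1 and 2. TRiC subunits in cKO 1 run from 25.0 to 399.8 CPM, and its points are the more widely scattered at right.

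Partners of the chaperones that are not members were read as lists, and none of their genes passed the test. The HSP90 cochaperones summed to 1143, 1026 and 1055 CPM in WT 1 to 3 and 1563, 1025 and 1067 CPM in cKO 1 to 3, with 9 of 14 estimates above 0 and 5 below (median +0.16). Stip1 (HOP), which hands clients from HSP70 to HSP90, had 51.5, 43.9 and 40.3 CPM across the WT libraries and 142, 55.9 and 67.9 CPM across the cKO libraries. Cdc37, which loads kinases onto HSP90, had 132, 135 and 107 CPM in WT 1 to 3 against 215, 155 and 154 CPM in cKO 1 to 3. Every IPMK cKO library was above every wild type library for both, with estimates of +0.97 (SE 0.42) and +0.48 (SE 0.29), and cKO 1 was the highest for each. The HSP70 cochaperones had 7 of 12 estimates above 0 and 5 below (median +0.01). Bag3, the stress-induced nucleotide exchange factor, had 0.842, 14.8 and 15.2 CPM across the WT libraries and 0.141, 2.74 and 4.97 CPM across the cKO libraries (−1.96, SE 1.64), and the ER translocation factor Sec63 had +0.39 (SE 0.35).

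Prefoldin, which brings actin and tubulin to TRiC, and other TRiC cofactors had 4 of 9 estimates above 0 and 5 below (median −0.02). The prefoldin genes Pfdn4 (−1.23, SE 1.34) and Pfdn5 (+0.28, SE 0.34) had the smallest p of that list. A chosen list of 12 ER-resident members (Hspa5, Hsp90b1, Hspa13, Dnajb9, Dnajb11, Dnajb12, Dnajb14, Dnajc1, Dnajc3, Dnajc10, Dnajc16 and Dnajc25) summed to 1349, 1322 and 1265 CPM in WT 1 to 3 and 1143, 1343 and 930.3 CPM in cKO 1 to 3, with 4 estimates above 0 and 8 below (median −0.25). This list is a selection and leaves out Dnajc14 (+0.39, SE 0.44). Genes of ER folding and the unfolded protein response outside the members had 6 of 15 above 0 and 9 below (median −0.17). Sdf2l1, an ER stress gene, had 33.3, 15.03 and 14.7 CPM in WT 1 to 3 against 4.36, 8.62 and 10.1 CPM in cKO 1 to 3 (−1.44, SE 0.81), lower in all IPMK cKO libraries. The lectin chaperone calnexin, Canx, had +0.48 (SE 0.29). The mitochondrial protein quality control genes had 5 of 7 above 0 and 2 below (median +0.44), with Pam16 at +0.57 (SE 0.51) and Clpb at +0.81 (SE 0.94). The median of these partners was thus above 0 and that of the mitochondrial members below it, in both cases with 0 genes called.

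The 18 untested members did not have enough counts in 3 libraries. Hspa2, the HSP70 of the testis, had 26 counts in WT 2 and 440 in cKO 1, with none in the other 4 libraries. Dnajc12 had 22 and 52 counts in WT 2 and 3, and Dnajc6, the auxilin of clathrin uncoating, had 6 and 41 in the same libraries. Neither had a count elsewhere. Hspa1l had 11 counts in WT 1 and 27 in cKO 2. Hspa12a had 4 counts in WT 3 and 6 and 29 in cKO 2 and 3. Hspa12b, Hspb9 and Hspb2 had 11, 12 and 10 counts, all in cKO 2. Hspb7 had 3 counts, Dnajb3 had 2 and Hspb8 had 1, each in a single wild type library. Hspb3, Dnajb7, Dnajb8, Dnajc22, Dnajc5b and Dnajc5g had no count in any library, which allows up to 0.304 to 0.422 CPM per library (3 counts). The remaining untested gene, Hspa1a, is described above with Hspa1b.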

How the data were processed

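Per the labels' protocols, Trizol RNA of the sorted cells went into Lexogen QuantSeq libraries. Values in the deposited files are raw whole-number counts by gene symbol, per the file headers and the values. Per the submitters' processing notes, Bowtie2 and edgeR were used with mm10 and hg19, whose roles and versions are not stated. The counting program, annotation and strand setting were not given in the sources used here. All 6 libraries were used, with 3 per genotype label. Counts were tested with edgeR 4.0.16 (R 4.3.3): TMM scaling, filterByExpr with a minimum of 10 counts, the quasi-likelihood test with no covariate and Benjamini-Hochberg adjustment over all 10475 genes tested, threshold 0.05. The script was checked on simulated data. Recovery of planted changes was required there only at a smaller spread between libraries than in these data, so the check says nothing about power here. CPM values are on TMM-scaled library sizes, and deviations use log2(CPM + 2). Shares are of counts outside Rn45s, with exact binomial intervals at 95%. Positions and transcript ends came from GENCODE M21 (81 of 82 members matched), promoters from RefSeq.

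The members and gene lists were chosen with earlier results of these data known. Named genes were every tested member outside the DNAJ classes, the 4 most abundant of each DNAJ class, the 5 of smallest p per direction, the 5 with the widest range between libraries at a mean of at least 20 CPM, 2 genes per partner list (smallest p) and per list of another cell type (most abundant), and Ipmk. Others were named after their values were seen. Alternatives were DESeq2 1.42.0, its size factors, other filters, removal of Rn45s, another share denominator, the replicate number as a block and leaving out libraries. Proteins were not used here.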

Additional observations from a re-analysis of the deposited data

How the results depend on the processing

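No member was called in any setting tried: size factors from DESeq2, no filter, a mean of at least 10 CPM, removal of Rn45s, a replicate block, an adjusted p of 0.1, DESeq2's own test, or leaving out any library. Over all genes edgeR called 0 genes lower (125 at an unadjusted p under 0.05), 0 to 1 when 1 library was left out (1 without cKO 1), 1 without both libraries numbered 1 (a setting added after the data were seen) and 3 by DESeq2. The members' median log2 fold change was +0.03, 0.0069 with the replicate block, and −0.045 to 0.13 when 1 library was left out, the highest without WT 1. Same-numbered libraries correlated by 0.02, 0.08 and 0.04 in their deviations from the group means, and each correlated best with its own number. Correlations this small over 3 libraries per group cannot decide whether the numbers pair libraries, and the labels do not say. The count of members higher in every IPMK cKO library was 4 of 64 (background over all genes 4.74%). With the stricter filter, which left out Hspb1 and Hspb6, it was 2 of 50 (4.93%). It was 5 to 12 with 1 library left out (7% to 10.9%) and 12 of 65 without both numbered 1 (14.6%). The lower count was 3 of 64 (5.66%), and 2 of 50 with the stricter filter (5.61%). It was 5 to 8 with 1 library left out (8.9% to 13.9%) and 12 of 65 without both numbered 1 (17.4%). Of the 64 tested members, 36 had an estimate that changed sign in at least 1 setting: 5 to 16 with 1 library left out (16 without cKO 1), 19 without both numbered 1, 6 with the block and 0 in the other settings. In 33 of the 36 the estimate lay within 1 SE of 0. The others were Dnajc5 (−0.086 to 0.72 when 1 library was left out) and, without both numbered 1, Hspa9 (0.32) and Dnajb14 (−0.24). The cause was not tested. What the depth and these 3 libraries per group limit is the precision, with a median SE of 0.56 over the members.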

Other observations

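Dnajc14, a J-domain protein of the ER, and Ormdl2, a regulator of sphingolipid synthesis, overlap at their 3′ ends on opposite strands, and their levels were close in all 6 libraries. Dnajc14 had 25.3, 35.9 and 52.1 CPM in WT 1 to 3 and 61.3, 43.6 and 43.8 CPM in cKO 1 to 3. Ormdl2 had 23.6, 34.2 and 49.0 CPM and 60.9, 33.8 and 47.5 CPM in the same order. The estimates were +0.39 (SE 0.44) and +0.41 (SE 0.46). Dnajc19 and Fxr1, the gene of an RNA-binding protein, overlap in the same way and did not run together: Fxr1 had 125, 84.0 and 75.4 CPM in WT 1 to 3 against 27.6, 73.8 and 55.2 CPM in cKO 1 to 3, so cKO 1 was its lowest library and the highest for Dnajc19. Whether the same tags were counted for both genes of a pair was not tested.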
